A study of Mus musculus with 141 samples.

Results

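Liver and kidney of the same mice were compared by RNA-seq. The comparison took every liver and every kidney library, which made 94 libraries, and joined them into 47 pairs by the strain of the mouse. The rest of the series was 47 libraries of lung, which entered the model fit only. Each strain belonged to the Collaborative Cross (CC), a panel of recombinant inbred strains that descend from the same founders, and each was represented by 1 male mouse, so that strain and mouse cannot be told apart and no strain was measured more than once. The mice were 8 to 12 weeks old, ate the NTP 2000 diet and were kept in exposure chambers with clear air for 6 h a day on weekdays before the tissues were taken, and liver, kidney and lung shared all of this. No treatment, genotype or age separated the groups, only the organ. Total RNA with a RIN of at least 7.0 was depleted of ribosomal RNA and read as 50-base single-end reads. Whole pieces of organ were sequenced, so a lower level may stem from fewer cells of a type or from less RNA per cell, which bulk libraries cannot tell apart.

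Liver and kidney are the organs with the widest range of metabolic reactions in the mouse. Hepatocytes make most plasma proteins, bile acids and urea, store glycogen, release glucose and ketone bodies, and oxidise drugs and steroids with cytochromes P450. The nephron filters plasma at the glomerulus and recovers solutes along the proximal tubule, the loop of Henle, the distal tubule and the collecting duct, by transport that is driven by mitochondrial ATP. The proximal tubule also makes glucose, ammonia and active vitamin D, and both epithelia share transcription factors such as HNF4.

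The label of each organ was checked with 4 genes. *Serpina3k*, which encodes a plasma protease inhibitor, lies on chromosome 12 of build NCBIM37 (chr12:105576696-105583951, plus strand) and *Mug1*, which encodes the protease inhibitor murinoglobulin, on chromosome 6 (chr6:121788559-121839075, plus strand). *Slc34a1*, the sodium-phosphate cotransporter of the proximal tubule brush border, lies at chr13:55501009-55516056 (plus strand) and *Tmem174*, which encodes a membrane protein of the proximal tubule, at chr13:99404933-99407365 (minus strand). All are annotated as protein-coding genes. Levels are given as CPM (counts scaled to a common library size) after TMM scaling, as the lowest, the median and the highest of the 47 libraries of an organ. *Serpina3k* had 4817, 17876 and 31160.2 CPM in liver and 0.214, 5.63 and 144 CPM in kidney. *Mug1* had 4190.1, 7007 and 10525 CPM in liver and 0, 1.72 and 63.7 CPM in kidney. The liver libraries lay above every kidney library for both genes, by 11.53 and 11.43 on the log2 scale (limma-voom, standard errors 0.19 and 0.18). *Slc34a1* had 0.236, 4.66 and 122 CPM in liver and 1522, 3152 and 4538 CPM in kidney. *Tmem174* had 0, 0.470 and 13.6 CPM in liver and 183, 330.3 and 456 CPM in kidney. Here the order was the opposite, again without overlap between the organs (log2 fold change -9.25 with a standard error of 0.15, q = 1.7e-78 and log2 fold change -9.22 with a standard error of 0.14, q = 4.11e-82, with Benjamini-Hochberg adjustment). The 47 pairs thus carried the markers that their labels named. All 4 genes were among the 12 largest differences of this same comparison, so their lack of overlap is no independent test. The plot of the markers by mouse shows each pair.

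**Figure D1:**
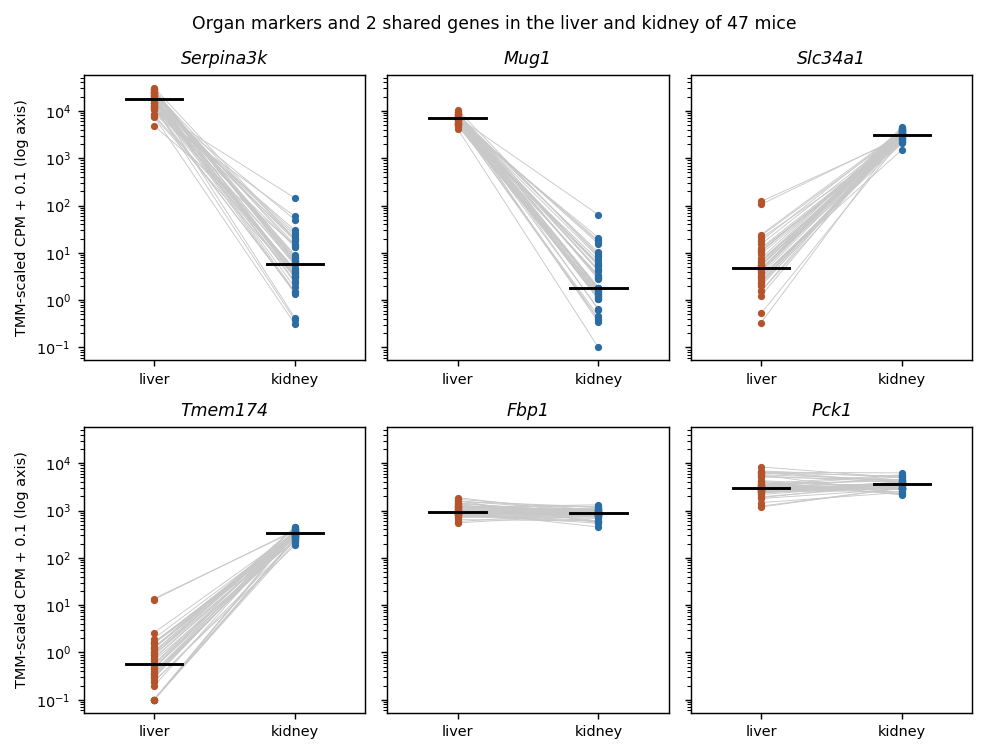
Level of the 4 marker genes and of Fbp1 and Pck1 in the liver and kidney library of each of the 47 mice, in TMM-scaled CPM + 0.1 on a log axis, with a point per library, a grey line joining the libraries of a mouse and a black bar at the median. The lowest liver library of Serpina3k held 4817 CPM and the highest kidney library 144 CPM, and the lowest kidney library of Slc34a1 held 1522 CPM and the highest liver library 122 CPM, so that the organs did not overlap for these markers, while they did for Fbp1 and Pck1.

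The promoters of a liver gene, of 2 kidney genes and of a gene with like levels in both organs are shown, because the comparison turns on these 3 kinds of gene. *Kap*, the kidney androgen-regulated protein, had the highest length-scaled level of the kidney genes named here, and *Pck1* encodes the phosphoenolpyruvate carboxykinase of gluconeogenesis. Each sequence is the RefSeq entry of GRCm38.p6 from 250 bases before to 50 bases after the start of the gene, read 5′ to 3′ on the strand of the gene. Capitals mark matches on either strand to GTTAAT, which reads ATTAAC from the opposite strand, or to TATAAA. No entry was found for *Serpina3k* and *Tmem174*.
Mug1: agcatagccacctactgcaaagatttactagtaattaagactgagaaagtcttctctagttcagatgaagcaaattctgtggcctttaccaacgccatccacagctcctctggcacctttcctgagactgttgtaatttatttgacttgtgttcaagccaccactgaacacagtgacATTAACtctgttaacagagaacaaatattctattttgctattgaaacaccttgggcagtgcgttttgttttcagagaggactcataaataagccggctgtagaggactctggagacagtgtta
Slc34a1: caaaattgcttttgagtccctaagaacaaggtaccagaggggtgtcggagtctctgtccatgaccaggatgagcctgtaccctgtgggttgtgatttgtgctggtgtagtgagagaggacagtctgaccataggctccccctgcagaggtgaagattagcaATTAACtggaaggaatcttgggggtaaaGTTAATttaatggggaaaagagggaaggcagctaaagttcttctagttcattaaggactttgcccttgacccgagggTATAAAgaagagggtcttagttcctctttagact
Kap: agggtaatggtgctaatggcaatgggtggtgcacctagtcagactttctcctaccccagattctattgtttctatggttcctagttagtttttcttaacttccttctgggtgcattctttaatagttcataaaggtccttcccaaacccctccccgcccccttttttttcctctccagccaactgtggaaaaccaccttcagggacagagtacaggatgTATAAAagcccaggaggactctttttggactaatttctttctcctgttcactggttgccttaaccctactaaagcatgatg
Pck1: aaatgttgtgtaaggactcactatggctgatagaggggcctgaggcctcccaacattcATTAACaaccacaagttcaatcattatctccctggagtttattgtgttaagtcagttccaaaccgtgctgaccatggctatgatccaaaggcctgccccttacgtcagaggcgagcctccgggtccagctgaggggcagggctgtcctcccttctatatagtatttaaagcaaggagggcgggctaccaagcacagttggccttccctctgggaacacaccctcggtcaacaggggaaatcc

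The *Mug1* window (GRCm38.p6, chr6:121838291-121838590, plus strand) held GTTAAT at 1 place, which began at base -73 from the start, on the opposite strand. The *Slc34a1* window (chr13:55399398-55399697, plus strand) held it at 2 places, bases -89 and -61, and a TATAAA at base 16 after the start. The *Kap* window (chr6:133853618-133853917, minus strand) held TATAAA at base -31, and the *Pck1* window (chr2:173152823-173153122, plus strand) held GTTAAT at base -192. Of 27025 promoter windows of this length, 7.20% held GTTAAT, 14.2% TATAAA, 0.477% the HNF4 core CAAAGTCCA and 0.185% the C/EBP sequence TTGCGCAA. The windows of *Tat*, a liver gene, and *Fbp1*, a gene with like levels, were searched too and held none of these 4 sequences. GTTAAT thus was present in some windows and missing from others of both the liver kind and the kind with like levels, and these matches are descriptions of letters and not of bound sites.

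Of 24423 genes in the files, 12127 had more than 1 CPM in at least 30% of all libraries and were compared. A gene was called when its Benjamini-Hochberg adjusted p (q) was at most 0.1 and its log2 fold change at least 1 in size, and 4412 genes passed (36.4%). Of these, 1891 were higher in liver (15.6%) and 2521 higher in kidney (20.8%). For 6945 genes (57.3%) the 95% interval of the difference lay wholly inside 2-fold, and these are called shared below. The word stands for a bounded difference and not for equality, since 5488 of the shared genes also had a q of at most 0.1. The remaining 770 genes were neither called nor bounded. Libraries of the organs did not overlap for 1600 of the genes tested (13.2%), among them 722 of the genes higher in liver and 826 of those higher in kidney. At least 32-fold differences were found for 330 genes in the direction of liver and 321 in that of kidney. In the text a number in brackets after a gene is its log2 fold change, liver over kidney, so that negative values stand for kidney. Of 1259 genes on the lists used here, 186 were under the filter and gave no comparison. Of these, 142 have more than 1 transcript and may have lost reads in counting, so a place under the filter need not mean low expression. Of the 5011 genes whose mean reached 10 CPM in both organs, 76.3% were shared.

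How the calls split between the organs rested on the scaling. TMM left the median log2 fold change over all genes at -0.0034, with median factors of 0.643 in liver and 1.319 in kidney. Scaled by total counts alone, the median gene was at -0.95 on the log2 scale and 981 genes were higher in liver against 5795 in kidney, 14.5% of the calls in place of 42.9%. On log2(TPM + 1) and log2(TPM + 0.1) of the deposited values the median was -0.72 and -0.94, and 16.3% and 14.4% of the calls were in the direction of liver. The 20 most abundant genes took 58.6% of the counts in the median liver library and 43.1% in the median kidney library. No gene called under TMM was called in the opposite direction under any alternative. Differences below are relative to the TMM scale, and a list median is followed by its range over the alternatives.

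Libraries differed in composition in ways that the organ does not explain. Depth ran from 1738046 to 42158454 counts in liver and from 3046695 to 15028553 in kidney. Before TMM scaling, 3 counts, taken as the floor of counting, stood for 0.288 CPM in liver and 0.364 CPM in kidney at median depth. The median TMM factors of 0.643 in liver and 1.319 in kidney raise this floor in liver and lower it in kidney. *Rn45s*, the ribosomal RNA precursor, held 0.321% to 69.0% of the counts in liver and 0.146% to 63.1% in kidney, and liver stood above kidney in 33 of 47 mice (log2 fold change 1.40 with a standard error of 0.47, q = 0.00474). Together, *Rn45s* and *Lars2* held a median of 43.2% and up to 90.3% of the counts in liver. In kidney they held a median of 32.3% and up to 83.0%. All other genes were left with as few as 491533 counts in a liver library and 1190759 in a kidney library. With *Rn45s* and *Lars2* left out of the totals, 4414 genes were called. Liver libraries of 3 mice (CC033, CC035 and CC036) held 488 to 1095 CPM over the 7 proximal tubule markers, against a liver median of 47.8 and a kidney median of 26958. One liver library held 3102 CPM of adrenal cortex markers (CC006), 7 held up to 2861 CPM of exocrine pancreas markers, and 1 held 1133 CPM of muscle markers (CC031). The kidney library of CC027 held 1126 CPM over 6 hepatocyte markers, where the kidney median was 41.0. Without these 13 mice, 4482 genes were called, and 98.0% of the calls made on all mice were among them. The median over the 7 proximal tubule markers was -8.99 with all mice and -9.13 without the 13, and that over the 8 hepatocyte markers 10.91 and 11. Many genes of either organ were at or near 0 counts in the other, and for these the fitted fold change depends on the small offset that voom adds.

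The respiratory chain was shared between the organs. Of 76 tested genes of oxidative phosphorylation, 71 were shared, where the share over all genes was 57.3%, and 3 were higher in kidney and 1 in liver (median -0.14, -1.10 to -0.14 over the alternatives). *Atp5a1* had 928, 1280.3 and 1928 CPM in liver and 1029, 1691 and 2382 CPM in kidney, with ranges that overlapped. *Atp5a1* encodes a catalytic-core subunit of ATP synthase, and its difference was small but measurable (-0.39, 95% interval -0.47 to -0.31). *Ndufa4* had 156, 247 and 343 CPM in liver and 140.1, 272 and 379.7 CPM in kidney, and *Cox6b1* (-0.22) and *Cox6c* (-0.32), subunits of cytochrome c oxidase, were likewise shared. The exceptions were single components. *Atpif1* had 10.2, 16.5 and 38.7 CPM in liver and 72.4, 123 and 251 CPM in kidney, and this inhibitor of ATP synthase did not overlap between the organs (log2 fold change -2.85 with a standard error of 0.060, q = 1.34e-67). *Cox7a1* (-2.18), a subunit of cytochrome c oxidase best known from muscle, and *Cycs* (-1.19), which encodes cytochrome c, were also higher in kidney. Per transcript length, the 81 listed genes held a mean of 46972 TPM in kidney and 21277 TPM in liver, shares of all transcripts that, unlike TMM-scaled values, are not adjusted for the most abundant genes.

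The pyruvate dehydrogenase complex and the tricarboxylic acid (TCA) cycle had genes shared and genes higher in kidney at shares near those of all genes. Among 21 tested genes, 6 were higher in kidney, 1 in liver and 13 shared (median -0.59, -1.56 to -0.58 over the alternatives), where 20.8%, 15.6% and 57.3% of all genes tested were so. The median over the list was below 0 in 47 of 47 mice. *Idh2* had 46.6, 95.3 and 155 CPM in liver and 177, 337 and 440.1 CPM in kidney. *Pdha1* had 92.3, 144 and 227 CPM in liver and 269, 417 and 548 CPM in kidney. Every kidney library exceeded every liver library for these genes of the NADP-dependent isocitrate dehydrogenase and the E1 subunit of pyruvate dehydrogenase (log2 fold change -1.76 with a standard error of 0.054, q = 1.91e-53 for *Idh2*). The NAD-dependent isocitrate dehydrogenase subunits *Idh3a* (-1.54) and *Idh3g* (-1.51) and the E2 subunit *Dlat* (-1.12) were higher in kidney too. Citrate synthase, *Cs* (-0.59), and mitochondrial malate dehydrogenase, *Mdh2* (-0.66), were shared. The only member higher in liver was *Slc25a1* (1.42), the mitochondrial citrate carrier that supplies the cytosol with citrate for lipid synthesis.

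Of the enzymes that make glucose, *Pck1* and *Fbp1* were shared. *Pck1* had 1189, 3001 and 8335 CPM in liver and 2135, 3564 and 6227 CPM in kidney. *Fbp1* had 548, 951 and 1872 CPM in liver and 448, 867 and 1320.2 CPM in kidney. The ranges overlapped in both cases, *Pck1* was higher in liver in 19 mice and in kidney in 28, and its difference did not pass q (-0.13, 95% interval -0.35 to 0.09, q = 0.255). *Fbp1*, fructose bisphosphatase, was higher in liver in 35 mice (0.26, 95% interval 0.12 to 0.40). Both genes were among the 12 most abundant with an interval inside 0.5 on the log2 scale. *G6pc* had 140.7, 635 and 2639 CPM in liver and 146, 344 and 936 CPM in kidney. The level of *G6pc*, the glucose 6-phosphatase of the last step, was higher in liver in 40 of 47 mice, with an interval that reached past 2-fold (0.98, 95% interval 0.76 to 1.21). The whole list of 19 tested genes had 10 shared members, 5 higher in liver and 3 higher in kidney (median 0.24, -0.73 to 0.31 over the alternatives), against 57.3%, 15.6% and 20.8% of all genes. The called members were split between the organs. The alanine aminotransferases *Gpt* (3.65) and *Gpt2* (3.54) and the aspartate aminotransferase *Got1* (2.17) were higher in liver. In contrast, *Pck2* (-1.65), the mitochondrial carboxykinase, and *Gk* (-2.11), the glycerol kinase, were higher in kidney. *Gk* has more than 1 transcript, and reads that fit several transcripts may have been lost in counting.

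Genes of fructose use were shared, and some of glycolysis were higher in kidney. *Khk* (0.42), *Tkfc* (0.75) and *Sord* (0.37), for ketohexokinase, triokinase and sorbitol dehydrogenase, lay inside 2-fold. Of the 23 tested genes, 7 were higher in kidney, 3 in liver and 12 shared (median -0.29, -1.15 to -0.17 over the alternatives), against 20.8%, 15.6% and 57.3% of all genes. Higher in kidney were the hexokinase *Hk1* (-2.92), the phosphofructokinase *Pfkp* (-3.36), and the pyruvate kinase *Pkm* (-2.76), all with more than 1 transcript and thus less firmly counted. Pyruvate dehydrogenase kinases split, with *Pdk1* (2.12) higher in liver and *Pdk3* (-6.19) and *Pdk4* (-2.14) higher in kidney. *Pklr*, *Ldha* and *Ldhb* stayed under the filter and gave no comparison, which need not mean low expression.

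Breakdown of branched-chain amino acids, propionate and lysine was shared for 17 of 26 tested genes, with 6 higher in liver and 1 in kidney (median 0.26, -0.70 to 0.28 over the alternatives), where 57.3%, 15.6% and 20.8% of all genes were so. *Pcca* had 42.2, 104 and 145 CPM in liver and 62.8, 96.3 and 168 CPM in kidney. This subunit of propionyl-CoA carboxylase had an interval of -0.07 to 0.13 around 0.03. *Ivd* (-0.55) and *Hibadh* (-0.08), dehydrogenases of leucine and valine breakdown, were shared. The switch of the branched-chain dehydrogenase was not: its activating phosphatase *Ppm1k* (2.40) was higher in liver and its inactivating kinase *Bckdk* (-1.42) higher in kidney. Machinery common to all cells was mostly shared. All 31 tested proteasome genes lay inside 2-fold (median 0.49, -0.46 to 0.52 over the alternatives), as did 67 of 73 mitochondrial (median 0.15, -0.81 to 0.15 over the alternatives) and 63 of 69 cytosolic ribosomal proteins (median 0.60, -0.36 to 0.61 over the alternatives). The sign of these small medians turned under total counts and TPM.

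**Figure D2:**
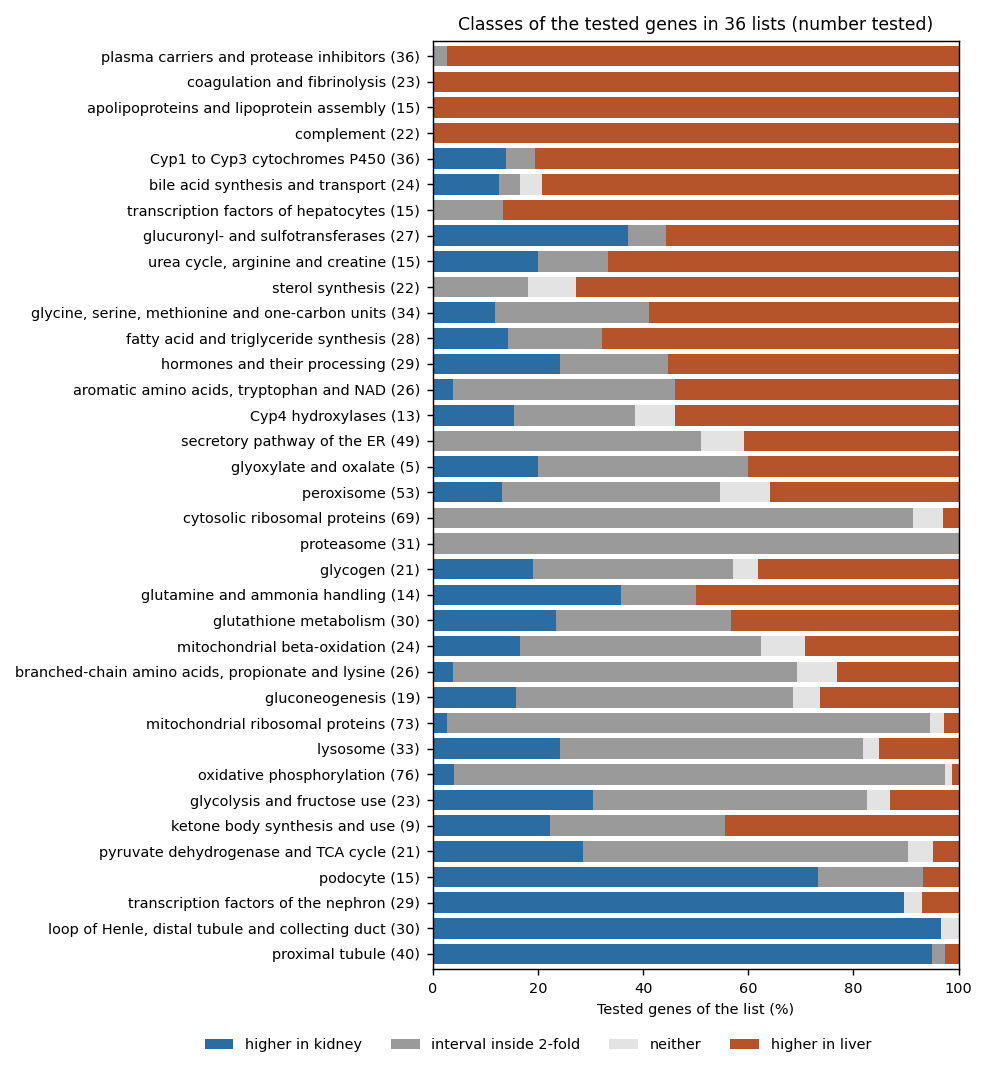
Share of the tested genes of each pathway or organ list that were higher in liver, higher in kidney, shared (95% interval inside 2-fold) or neither, as stacked bars from 0 to 100% with the number of tested genes beside each name. Plasma carriers, apolipoproteins, coagulation and complement are almost wholly higher in liver, tubule lists almost wholly higher in kidney, and the proteasome (31 of 31) and oxidative phosphorylation (71 of 76) almost wholly shared.

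Genes of fatty acid oxidation fell into all classes. Of 24 tested genes of mitochondrial beta-oxidation, 11 were shared, 7 were higher in liver and 4 in kidney (median 0.38, -0.58 to 0.38 over the alternatives), against 57.3%, 15.6% and 20.8% of all genes. *Cpt1a* had 365, 606 and 1044 CPM in liver and 300.4, 461 and 616 CPM in kidney, and the shared list also held the long-chain dehydrogenase *Acadl* (0.02). *Acaa2* (3.35), the last thiolase of the spiral, and *Acsl1* (2.89), the main long-chain acyl-CoA synthetase, were higher in liver, the latter from more than 1 transcript. The medium-chain dehydrogenase *Acadm* (-1.13), the carnitine transporter *Slc22a5* (-2.66) and the acetyl-CoA synthetase of mitochondria, *Acss1* (-6.92), were higher in kidney. Peroxisomes differed in content. Among 53 tested genes, 19 were higher in liver, 7 in kidney and 22 shared (median 0.63, -0.29 to 0.65 over the alternatives). *Uox* had 713, 2153 and 3872 CPM in liver and 0, 0.910 and 16.9 CPM in kidney. Urate oxidase, the last enzyme of purine breakdown in the mouse, did not overlap between the organs (log2 fold change 10.97 with a standard error of 0.14, q = 1.04e-86). *Agps* had 26.5, 36 and 68.3 CPM in liver and 226, 519 and 1994 CPM in kidney. This enzyme sets the ether bond of plasmalogens (log2 fold change -3.85 with a standard error of 0.080, q = 1.63e-68), and *Far1* (-5.38), which supplies its fatty alcohol, was higher in kidney in the same direction, from more than 1 transcript.

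Among the genes of ketone bodies, the enzyme that defines their use was higher in kidney. *Oxct1* had 5.71, 14.2 and 85.0 CPM in liver and 693, 1189 and 1882 CPM in kidney. *Oxct1*, the transferase that cells need in order to burn ketone bodies, was higher in every kidney (log2 fold change -6.28 with a standard error of 0.086, q = 6.25e-85). *Acat1* (-0.56), which works in both synthesis and use, was shared. The monocarboxylate transporter *Slc16a1* (1.31) and the dehydrogenase *Bdh1* (1.22) were higher in liver. Of the 9 tested genes, 4 were higher in liver, 2 in kidney and 3 shared, against 15.6%, 20.8% and 57.3% of all genes. The list median was -0.56 and its sign changed over the alternatives (-1.53 to 0.28).

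**Figure D3:**
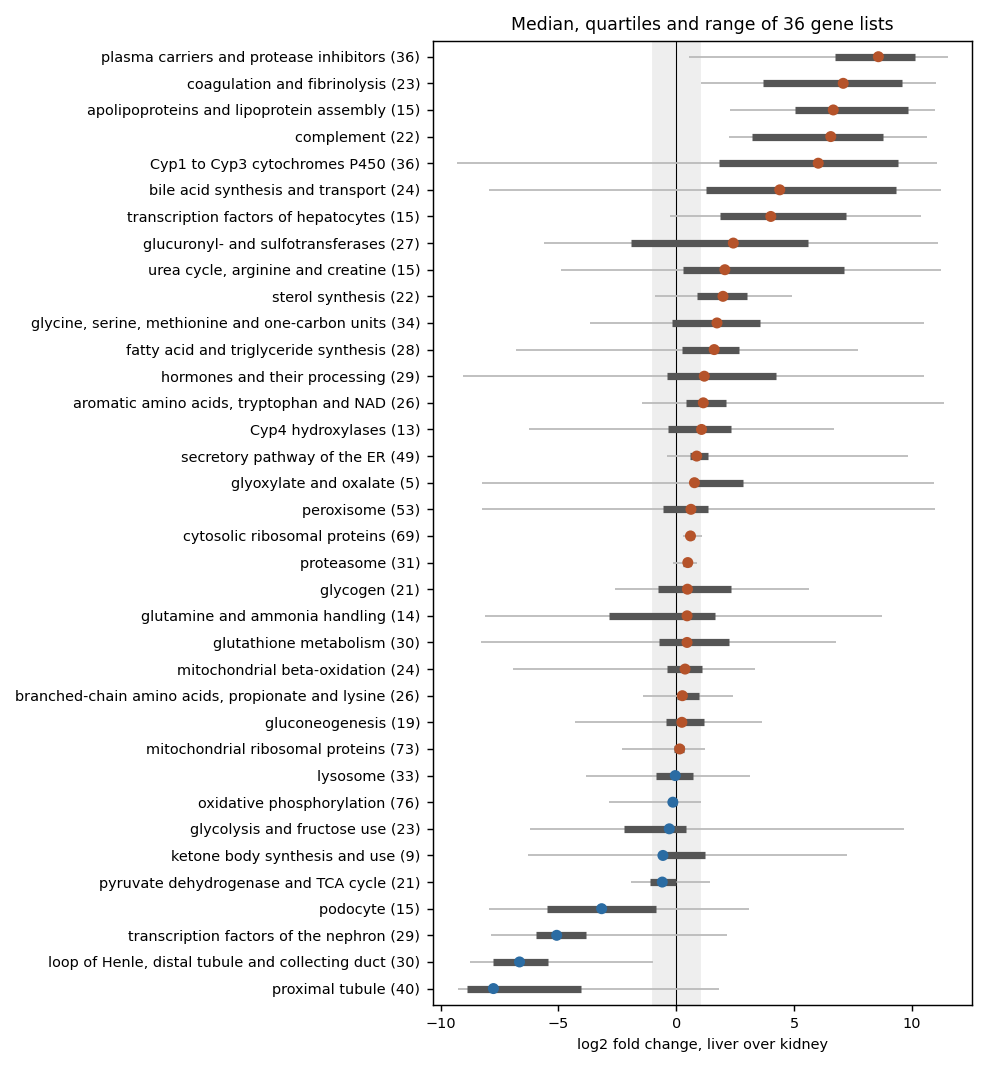
Median log2 fold change (liver over kidney, TMM scale) of each pathway or organ list as a point, with a thick line from the lower to the upper quartile of its genes, a thin line over their range and a grey band at 2-fold. Plasma carriers (median 8.58) and coagulation (7.09) lie at the liver end, and the proximal tubule (-7.76) and the loop of Henle to collecting duct list (-6.65) at the kidney end. Oxidative phosphorylation (-0.14), gluconeogenesis (0.24) and mitochondrial beta-oxidation (0.38) lie around 0, while fatty acid and triglyceride synthesis (1.61) and sterol synthesis (1.98) lie on the liver side.

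Plasma proteins formed the clearest liver group. 35 of 36 tested plasma carriers and protease inhibitors were higher in liver (median 8.58, 6.72 to 9.03 over the alternatives), as were all 15 tested apolipoproteins and assembly genes (median 6.66, 4.86 to 7.39 over the alternatives), all 23 coagulation and fibrinolysis genes (median 7.09, 5.51 to 7.46 over the alternatives) and all 22 complement genes (median 6.56, 4.49 to 7.10 over the alternatives). Genes higher in liver made up 15.6% of all genes tested. These lists were chosen for the liver, so their direction is no finding. *Alb* had 35554, 75954 and 154456 CPM in liver and 0.842, 31.1 and 785 CPM in kidney. Albumin was thus the most abundant of the carriers, and it did not overlap between the organs (log2 fold change 10.84 with a standard error of 0.22, q = 1.23e-68). The carriers of heme and iron, *Hpx* (11.12) and *Trf* (9.70), the apolipoproteins *Apoa1* (10.98), *Apof* (10.92) and *Apoc4* (10.69), the clotting proteins *Fgb* (11.04), *F2* (10.50) and *Plg* (10.49) and the complement proteins *C9* (10.63), *C4bp* (10.62) and *Mbl2* (10.54) followed at a similar size. Smaller differences were found for *Apob* (5.78), the microsomal transfer protein *Mttp* (2.43) that loads it, *Pltp* (2.29), and *C1qa* (2.25), which macrophages make. *Serpina3c* (0.54) was the 1 carrier in the shared class. Members of the Serpina1, Serpina3 and major urinary protein families are near-identical in sequence, so that reads may have been lost or divided among them, and *Mup3* overlapped between the organs in spite of a difference of 11.28. Per transcript length, the 37 carriers and inhibitors held 146053 TPM in liver (SD 38703, n = 47) and 949 TPM in kidney (SD 448, n = 47).

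The endoplasmic reticulum that exports these proteins had genes of 2 kinds, shared and higher in liver. Of 49 tested genes of its secretory pathway, 25 were shared (against 57.3% over all genes), 20 were higher in liver (against 15.6%) and 4 were neither called nor bounded (median 0.87, -0.10 to 0.88 over the alternatives), and the list median was positive in 47 of 47 mice. Higher in liver were *Creb3l3* (9.82), a membrane-bound transcription factor of the hepatocyte, *Ero1lb* (3.02), an oxidase of disulfide formation, and *Sec24d* (2.52), a coat protein of export vesicles. The disulfide isomerase *Pdia3* (0.64) and the oligosaccharyltransferase subunit *Rpn2* (0.70) were shared.

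Bile acid handling was divided by step. Among 24 tested genes, 19 were higher in liver, 3 in kidney and 1 was shared (median 4.39, 2.88 to 4.61 over the alternatives), against 15.6%, 20.8% and 57.3% of all genes. *Cyp7a1* had 43.9, 232 and 1123 CPM in liver and 0, 0.177 and 4.33 CPM in kidney. *Abcb11* had 546, 1183 and 2036 CPM in liver and 0, 0.356 and 10.6 CPM in kidney. *Cyp7a1*, the rate-limiting enzyme of bile acid synthesis, and *Abcb11*, the bile salt export pump of the canaliculus, did not overlap between the organs, and *Cyp7a1* was at or under 3 counts in 30 kidney libraries. *Slc51a* had 0, 0.238 and 2.84 CPM in liver and 37.9, 75.4 and 175 CPM in kidney. The members higher in kidney were *Slc51a* (-7.94) and *Slc51b* (-4.70), the 2 chains of the basolateral organic solute transporter, and *Slc10a2* (-1.69), the apical bile acid transporter, which in ileum and tubule recover bile acids. Their counterpart for uptake from blood, *Slc10a1* (7.09), was higher in liver.

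Cytochromes P450 of families 1 to 3, which oxidise drugs, steroids and fatty acids, were higher in liver for 29 of 36 tested genes, higher in kidney for 5 and shared for 2 (median 6.02, 3.59 to 6.53 over the alternatives). The shares over all genes tested were 15.6%, 20.8% and 57.3%. *Cyp2e1* had 4269, 7933 and 18939 CPM in liver and 698, 1647 and 3542 CPM in kidney. This enzyme of ethanol oxidation was abundant in kidney as well and still did not overlap (log2 fold change 2.22 with a standard error of 0.091, q = 1.79e-42). *Cyp2c67* (11.08), *Cyp2c29* (10.91) and *Cyp3a11* (10.90) had differences near the top of the range. Within the Cyp2j subfamily, whose enzymes epoxidise arachidonic acid, the organs took different members: *Cyp2j13* had 0, 0.790 and 23.4 CPM in liver and 196, 528 and 1107 CPM in kidney, and *Cyp2j11* (-8.15) was higher in kidney too, whereas *Cyp2j5* (-0.48) and *Cyp2j9* (-0.31) were shared. *Cyp2j5* had 457, 1027 and 1476 CPM in liver and 717, 1434 and 1761 CPM in kidney. Members of these subfamilies share sequence, which makes the division of reads among them uncertain. The conjugating enzymes were split as well. Of 27 tested glucuronyl- and sulfotransferases, 15 were higher in liver and 10 in kidney (median 2.42, 1.38 to 2.52 over the alternatives). The same subfamily gave the ends of the range, with *Ugt2b1* (11.10), *Ugt2b36* (11.09) and *Ugt2b35* (10.33) in liver and *Ugt2b37* (-5.61) and *Ugt2b38* (-5.40) in kidney. *Ugdh*, which makes the glucuronic acid donor for all of them, was shared (0.86).

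Glutathione genes fell into all classes. Of 30 tested genes, 13 were higher in liver, 7 in kidney and 10 shared (median 0.46, -0.51 to 0.60 over the alternatives). Over all genes tested the shares were 15.6%, 20.8% and 57.3%, so the kidney count was near its share. The transferases *Mgst1* (6.79), *Gstm6* (6.32) and *Gsta3* (5.06) were higher in liver. *Mgst1* had 1906, 3131 and 4625 CPM in liver and 12.6, 27.0 and 62.9 CPM in kidney. Breakdown at the cell surface was on the kidney side, with *Ggt1* (-6.86), the gamma-glutamyltransferase of the brush border, and *Dpep1* (-5.85), the dipeptidase of the next step. *Gpx3* (-8.29), the secreted glutathione peroxidase that the tubule releases to plasma, was higher in kidney, although *Gpx3* has more than 1 transcript and its libraries overlapped. The synthesis and recycling enzymes *Gclc* (0.46) and *Gsr* (-0.60) were shared.

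The urea cycle parted in its first and last steps and came closer in the middle. *Otc* had 480.2, 702 and 1062 CPM in liver and 0, 0.256 and 7.08 CPM in kidney. *Cps1* had 5667, 10097 and 16096 CPM in liver and 0.187, 4.59 and 103 CPM in kidney. The mitochondrial enzymes *Otc* and *Cps1* were at 11.23 and 11.12 on the log2 scale, and *Nags* (8.25) and *Arg1* (10.32), the activator enzyme and the arginase that releases urea, were as one-sided. *Ass1* had 353, 651 and 1593 CPM in liver and 127, 258 and 694 CPM in kidney. *Asl* had 219, 472 and 1090.5 CPM in liver and 47.6, 121 and 215 CPM in kidney. Argininosuccinate synthetase and lyase, which the kidney uses to make arginine for the body, were higher in liver by 1.38 and 2.06 on the log2 scale, and *Ass1* overlapped between the organs. Creatine synthesis was divided between organs by step. *Gatm* had 5.32, 16.8 and 57.2 CPM in liver and 241, 488 and 879 CPM in kidney. *Gamt* had 108, 145 and 209 CPM in liver and 5.29, 14.0 and 29.8 CPM in kidney. *Gatm* makes guanidinoacetate and was higher in every kidney (log2 fold change -4.91 with a standard error of 0.10, q = 5.23e-69). *Gamt*, which methylates it to creatine, was higher in every liver (log2 fold change 3.43 with a standard error of 0.065, q = 7.31e-72). In the whole list 10 of 15 tested genes were higher in liver, 3 in kidney and 2 shared (median 2.06, 1.07 to 2.12 over the alternatives). Against 15.6%, 20.8% and 57.3% of all genes, the kidney count was near its share. The third kidney member beside *Gatm* and *Arg2* (-3.60) was *Ddah1* (-2.75), which clears methylated arginine.

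Ammonia handling was divided too. Of 14 tested genes, 7 were higher in liver and 5 in kidney (median 0.46, -0.59 to 1.09 over the alternatives), against 15.6% and 20.8% of all genes. *Glul* had 723, 1244 and 2081 CPM in liver and 207, 467 and 887 CPM in kidney. Glutamine synthetase was higher in liver in 47 of 47 mice (log2 fold change 1.35 with a standard error of 0.077, q = 2.84e-31), although the libraries of the organs overlapped. *Rhcg* (-8.10), the ammonia channel of the collecting duct, and *Slc1a1* (-7.76), the glutamate transporter of the tubule, were higher in kidney. The transporters of hepatocyte glutamine and neutral amino acids, *Slc38a4* (8.73) and *Slc38a3* (5.76), were higher in liver.

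Breakdown of aromatic amino acids was higher in liver for 14 of 26 tested genes, higher in kidney for 1 and shared for 11 (median 1.15, 0.18 to 1.26 over the alternatives). The shares over all genes tested were 15.6%, 20.8% and 57.3%. *Tat* had 818, 1510.4 and 6942 CPM in liver and 0, 0.597 and 14.6 CPM in kidney. *Tat*, tyrosine aminotransferase, parted the organs without overlap (log2 fold change 11.37 with a standard error of 0.15, q = 2.94e-86), and *Tdo2* (10.61), which opens the ring of tryptophan, was higher in liver as well. *Hpd* had 1151, 2158 and 4231 CPM in liver and 5.60, 83.7 and 349.7 CPM in kidney. The 1 kidney member was *Acmsd* (-1.46), which turns the pathway away from NAD. Among 34 tested genes of glycine, serine, methionine and one-carbon units, 20 were higher in liver, 4 in kidney and 10 shared (median 1.73, 0.74 to 1.95 over the alternatives). *Mat1a* had 1322, 3817 and 8073 CPM in liver and 0.187, 1.88 and 77.1 CPM in kidney, and *Hal* (9.79) and *Amdhd1* (9.71), for the first steps of histidine breakdown, were as one-sided. In kidney, *Phgdh* (-3.66), which starts serine synthesis, *Aldh1l2* (-2.85), a mitochondrial folate enzyme, *Csad* (-2.20), which makes hypotaurine, and *Mat2a* (-1.92) were higher.

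Glycogen genes were as often shared as higher in liver, while most genes of lipid synthesis were higher in liver. Of 21 tested glycogen genes, 8 were higher in liver, 4 in kidney and 8 shared (median 0.48, -0.46 to 0.81 over the alternatives). Over all genes tested the shares were 15.6%, 20.8% and 57.3%, so the kidney count was near its share. *Gys2* had 168, 307 and 696 CPM in liver and 2.56, 16.0 and 32.3 CPM in kidney. *Pygl* had 458, 786 and 935 CPM in liver and 11.9, 27.2 and 108 CPM in kidney. Liver glycogen synthase and phosphorylase thus did not overlap between organs, and the targeting subunits *Ppp1r3b* (5.05) and *Ppp1r3c* (5.62) went with them, whereas the muscle and brain forms *Gys1* (-2.58) and *Pygb* (-1.62) were higher in kidney. Fatty acid and triglyceride synthesis was higher in liver for 19 of 28 tested genes, higher in kidney for 4 and shared for 5 (median 1.61, 0.61 to 1.65 over the alternatives). *Scd1* had 570.1, 5034 and 23902 CPM in liver and 69.6, 427 and 3792 CPM in kidney. The desaturase *Scd1* varied widely in both organs, and liver was higher in 45 of 47 mice (log2 fold change 3.55 with a standard error of 0.19, q = 2.37e-33). *Fasn* (1.57), fatty acid synthase, was higher in liver in 39 mice. Members with large differences were *Elovl3* (7.70) and *Thrsp* (4.57) in the direction of liver and *Scd2* (-2.14), *Elovl7* (-6.10) and *Mogat1* (-6.78) in that of kidney. Sterol synthesis had 16 of 22 tested genes higher in liver, 4 shared and 2 neither called nor bounded (median 1.98, 0.98 to 2.0 over the alternatives). *Sc5d* (4.92) and *Tm7sf2* (4.40), late steps of cholesterol synthesis, were among them. *Cyp51* (-0.36) was shared.

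The kidney side was led by transport. Of 40 tested proximal tubule genes, 38 were higher in kidney, 1 in liver and 1 shared (median -7.76, -8.69 to -6.12 over the alternatives). Genes higher in kidney made up 20.8% of all genes tested. *Kap* had 1.57, 19.9 and 581 CPM in liver and 6212, 15067 and 25436 CPM in kidney. *Kap*, a small protein whose expression in proximal tubule depends on androgen, averaged 83057 TPM in kidney and 131 TPM in liver (log2 fold change -9.21 with a standard error of 0.18, q = 2.36e-70). *Lrp2* had 2.20, 13.5 and 350.4 CPM in liver and 3188, 6721 and 9031 CPM in kidney. *Lrp2*, megalin, takes up filtered protein together with cubilin, *Cubn* (-8.76). Also among the largest differences were the glucose transporter *Slc5a2* (-8.48), the lactate transporter *Slc5a8* (-9.09), the organic anion transporter *Slc22a6* (-8.99), the urate transporter *Slc22a12* (-8.94) and the brush border protease *Mep1a* (-9.06). The water channel *Aqp1* (-2.11), which endothelium and bile ducts also carry, was higher in kidney by far less. The members that did not follow were *Slc6a13* (1.81), a transporter of taurine and GABA found in periportal hepatocytes, which was higher in liver, and *Slc22a30* (0.40). The list was chosen for the kidney, so its direction is no finding either.

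Genes of the later segments followed. Of 30 tested genes of the loop of Henle, the distal tubule and the collecting duct, 29 were higher in kidney (median -6.65, -7.69 to -4.58 over the alternatives), and the exception, the sodium channel subunit *Scnn1a*, was at -0.97 with an interval on both sides of 2-fold. Over all genes tested 20.8% were higher in kidney, and this list too was chosen for the kidney. *Aqp2* had 0, 0 and 3.40 CPM in liver and 23.5, 50.1 and 101 CPM in kidney. This water channel answers to vasopressin in the collecting duct. *Calb1* (-8.43), a calcium buffer of the distal tubule, was higher in kidney, as were *Umod* (-6.85), *Slc12a1* (-7.97) and *Slc12a3* (-5.14), the uromodulin and the salt transporters that diuretics block, all from more than 1 transcript. Among 15 tested podocyte genes, 11 were higher in kidney, 1 in liver and 3 shared (median -3.16, -4.16 to -2.11 over the alternatives). The slit diaphragm gene *Nphs1* (-6.51) and the basement membrane collagen *Col4a4* (-6.69) were higher in kidney, and the cytoskeletal genes *Actn4* (-0.28) and *Cd2ap* (-0.47) were shared.

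Transcription factors of both lineages were compared. *Hnf4a* had 0, 14.6 and 35.0 CPM in liver and 3.27, 14.9 and 33.2 CPM in kidney. This regulator, named from hepatocytes, was shared: *Hnf4a* was higher in liver in 25 mice and in kidney in 22 (0.08, 95% interval -0.07 to 0.24, q = 0.309, from more than 1 transcript). Of 15 tested hepatocyte factors, 13 were higher in liver (median 4.01, 2.81 to 4.67 over the alternatives), led by *Onecut2* (10.39), *Creb3l3* (9.82), *Foxa3* (8.91) and *Onecut1* (8.37). Genes higher in liver made up 15.6% of all genes tested. *Cebpa* and *Cebpb* stayed under the filter. Of 29 tested factors of the nephron, 26 were higher in kidney (median -5.07, -6.04 to -2.92 over the alternatives), against 20.8% of all genes tested. Both lists of factors were chosen for their organ, so their direction is no finding. *Pax8* had 0, 0.209 and 3.40 CPM in liver and 47.8, 66.6 and 101 CPM in kidney. *Pax2* (-5.76), *Pax8* (-7.82), *Sim1* (-7.85), *Emx2* (-6.93) and *Hoxd10* (-6.23) take part in kidney development and were higher in kidney. *Foxq1* (2.17) and *Bhlhe40* (1.47) went the other way.

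Pairs of isoenzymes, of related genes and of consecutive steps were compared between the organs. Of 31 listed pairs, 20 had both members tested, and 17 of these are described. The first member was higher in liver and the second in kidney in 11 pairs, the first was shared and the second higher in kidney in 4, and both were higher in liver in 2. The pairs were listed with these organs in mind, so the counts describe them and test nothing. The share of the first member in the summed TPM of its pair is given as the mean over 47 libraries. Arginase was 99.96% *Arg1* in liver and 21.4% in kidney, where *Arg2* (-3.60) supplied the rest. Methionine adenosyltransferase was 96.4% *Mat1a* in liver and 1.17% in kidney. Of the 2 hydroxyacid oxidase genes, *Hao1* supplied 99.0% in liver and 0.0824% in kidney. *Hao2* had 0, 1.12 and 39.2 CPM in liver and 100.2, 434 and 1108 CPM in kidney. Glycogen synthase went from 98.7% *Gys2* to 39.2% and phosphorylase from 99.0% *Pygl* to 56.7%, so both forms were present in kidney. In contrast, the liver forms supplied nearly all of the transcripts in both organs for phosphoenolpyruvate carboxykinase (99.9% *Pck1* in liver and 99.8% in kidney) and fructose bisphosphatase (99.9% and 98.7% *Fbp1*), although the second members *Pck2* and *Fbp2* were called higher in kidney. Steps of steroid and vitamin handling, which are not the same reaction, also lay on opposite sides. The dehydrogenase *Hsd11b1* (1.19), which makes active glucocorticoid, stood against *Hsd11b2* (-6.56), which inactivates it in the distal nephron. The vitamin D 25-hydroxylase *Cyp2r1* (4.44) stood against the 1-alpha-hydroxylase *Cyp27b1* (-4.69). *Hsd11b1* and *Cyp2r1* have more than 1 transcript.

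**Figure D4:**
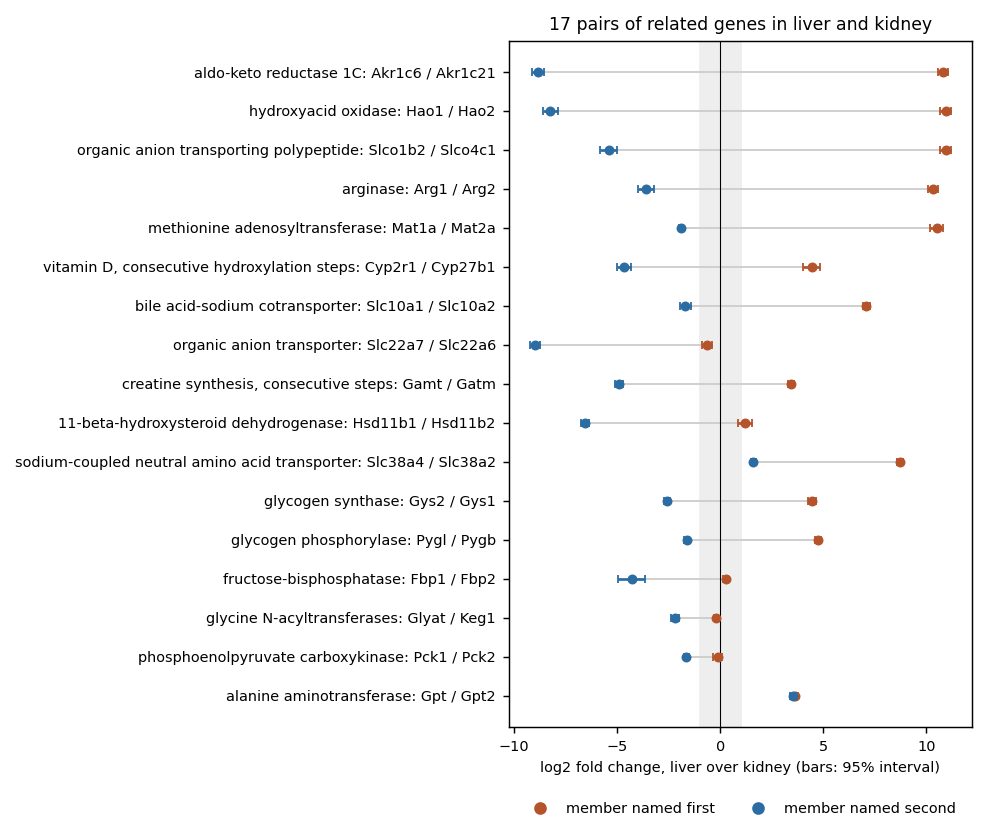
Log2 fold change (liver over kidney, TMM scale) of the first and second member of the 17 pairs described, with 95% intervals as bars, a line joining the members and a grey band at 2-fold. In 11 of 17 pairs the members lie on opposite sides beyond 2-fold, and in 4 the first member lies inside 2-fold and the second on the kidney side.

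The largest differences included further genes. Next to those already given, the 12 largest in the direction of liver held *Mup3* and *Mup21* (11.08), which encode urinary pheromone carriers, and the 12 largest in that of kidney held *Fut9* (-9.06), *Slc7a13* (-9.01) and *Tmem27* (-8.99), a fucosyltransferase, the cystine transporter of the straight tubule and collectrin, a partner of amino acid transporters. *Kl* (-9.06), klotho, the coreceptor of the phosphate hormone FGF23, belonged to them as well. *Kl* had 0, 0.889 and 28.1 CPM in liver and 261, 584 and 815 CPM in kidney. The 12 most abundant genes with an interval inside 0.5 on the log2 scale were of another kind. Besides *Pck1*, *Fbp1*, *Atp5a1*, *Ndufa4*, *Cox6b1* and *Cox6c* they included *Rpl41* (0.31), *Tpt1* (0.32), *Itm2b* (0.07), *Rida* (0.25) and *Ttc36* (0.26). *Itm2b* had 647, 919.8 and 1154 CPM in liver and 604, 873 and 1133 CPM in kidney. *Rida*, which removes reactive imines made by amino acid breakdown, averaged 1201 TPM in liver, 1961 TPM in kidney and 37.2 TPM in lung.

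How far the difference between the organs depended on the mouse was read from the 5011 genes whose mean reached 10 CPM in both organs. Single libraries of these genes could lie far under 10 CPM. Among them, the standard deviation over 47 mice of the difference within a mouse had a median of 0.345 on the log2 scale. In 32 called genes of this kind, 5 or more mice went in the opposite direction. *Akr1c18* had 0, 0.366 and 254 CPM in liver and 0.338, 7.41 and 247 CPM in kidney. *Akr1c18*, the 20-alpha-hydroxysteroid dehydrogenase that inactivates progesterone, was at 10 CPM or more in 12 liver and 21 kidney libraries and under 1 CPM in 35 and 6, and was higher in kidney in 37 mice and in liver in 10 (standard deviation of the difference 4.09). *Cyp2a4* had 0, 2.05 and 601 CPM in liver and 0.648, 275 and 813 CPM in kidney. *Cyp2a4*, a steroid hydroxylase, varied in liver over 12 libraries under 1 CPM and 17 at 10 CPM or more, while 46 kidney libraries had at least 10 CPM. It shares nearly all of its sequence with another member of its subfamily. *Azgp1* had 925, 1367 and 2007 CPM in liver and 0, 17.5 and 116 CPM in kidney. *Serpina1d* had 292, 1115 and 3350.3 CPM in liver and 0, 1.67 and 137 CPM in kidney. Both were present in every liver and varied in kidney, *Azgp1* with 25 kidney libraries at 10 CPM or more and 11 under 1 CPM, and *Serpina1d* with 17 and 17. *Clec2h* had 0, 2.08 and 78.1 CPM in liver and 1.15, 31.6 and 81.8 CPM in kidney. *Ugt1a10* had 0, 4.10 and 169.6 CPM in liver and 0, 35.0 and 90.5 CPM in kidney. *Ugt1a10* had 37 kidney libraries and 4 liver libraries at 10 CPM or more. With 1 mouse per strain, variation between strains, between mice and between pieces of organ cannot be told apart. *Rn45s* and *Lars2*, which carry ribosomal RNA reads, completed the 8 most variable genes.

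**Figure D5:**
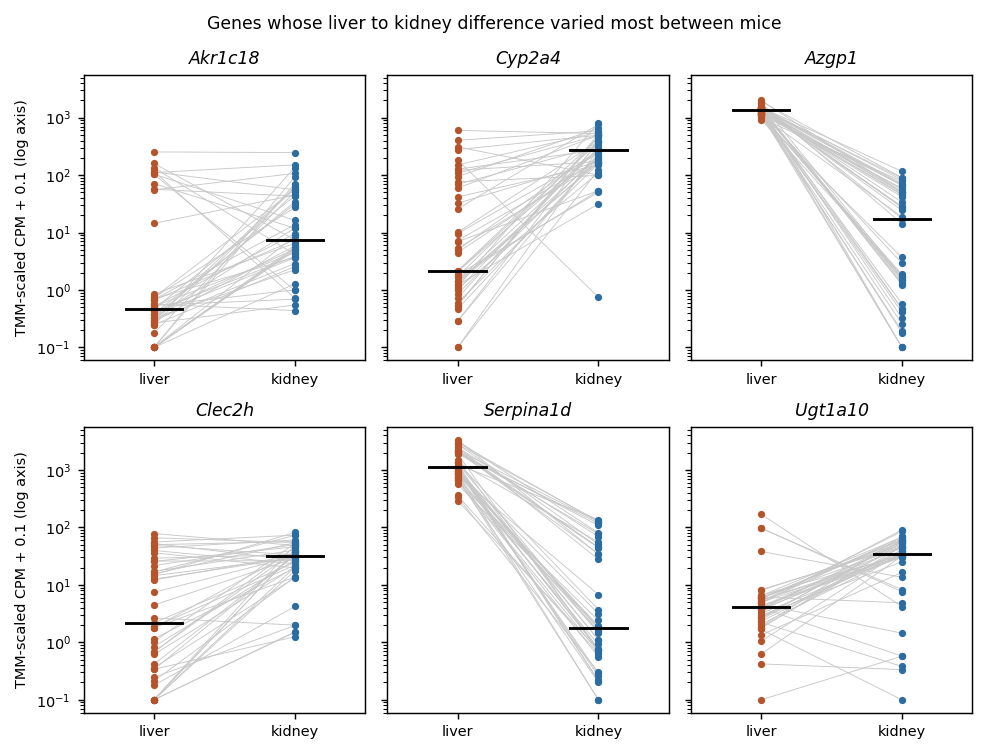
Level of 6 genes with the largest variation of the organ difference over mice, in the liver and kidney library of each of the 47 mice, in TMM-scaled CPM + 0.1 on a log axis, with a grey line joining the libraries of a mouse and a black bar at the median. Akr1c18 ranged from 0 to 254 CPM in liver and from 0.338 to 247 CPM in kidney, and Azgp1 stayed between 925 and 2007 CPM in liver while it ranged from 0 to 116 CPM in kidney.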

How the data were processed

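Gene expression was measured by RNA-seq in liver, kidney and lung of 47 CC strains, with 1 male mouse per strain and 1 library per organ. The authors removed reads of low quality and adapters, aligned the rest with STAR 2.5.3a to a pseudo-genome of each strain (mm9, RefSeq annotation) and quantified unique alignments with RSEM, so reads of paralogs, and of genes with several transcripts, may be missing: 45.5% of the listed genes with more than 1 transcript failed the low-count filter, against 4.65% of the others. The expected count deposited by the authors is on the scale of reads, and all but 25 values over all files were whole. The TPM deposited by the authors divides by transcript length and library, and was used to compare genes with each other. The FPKM deposited by the authors was not used.

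Expected counts were rounded, scaled by TMM (edgeR 4.0.16) and kept where more than 1 CPM was found in at least 30% of the libraries. limma-voom (limma 3.58.1, R 4.3.3) was fitted to all libraries of the 3 organs with tissue and with strain as the replicate block, as liver minus kidney, with Benjamini-Hochberg adjustment over 12127 genes. The replicate numbers pair the libraries because each strain was 1 mouse. Deviations from the organ means correlated across genes at a median of 0.173 within mice and -0.006 between mice. Within mice, 45 of 47 pairs were over 0.1 and the lowest was at -0.031. The methods of the study held sequencing batch in the model, but no batch is among the labels, so it was left out of the fit. Depth was 1738046 to 42158454 counts with *Rn45s* and *Lars2* included, and floors of 3 counts cover counting error only. The members and gene lists were chosen with earlier results of these data known, and no set test was run. The genes named were the 12 with the largest change per direction (at least 10 CPM in the higher organ, same direction in all mice), the 12 most abundant with an interval between -0.5 and 0.5, up to 3 per class in each list, the members of listed pairs, the markers, and the 8 that varied most between mice. Other list members that mark a known step of a pathway were added from the lists for their known role after values were seen.

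Alternatives covered scaling, thresholds, filters, tests (edgeR, DESeq2 1.42.0), the libraries fitted, depth and TPM with pseudocounts of 1 and 0.1. Leaving out 13 mice, and leaving out *Rn45s* and *Lars2*, were chosen after seeing the data. The fit was tested on counts simulated with known differences. Promoter sequences existed for 73.7% of the genes higher in liver and 75.0% of those higher in kidney, under 80%, so a comparison of motif shares between classes was void. Gene positions are from GENCODE vM1. Hmgcs1, Cyp2j7 and Ighm, chromatin accessibility and genotypes were not analysed here. Results of some genes are not reported here. Python 3.11.15, numpy 2.4.6, pandas 2.3.3 and matplotlib 3.10.9 were used.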

Additional observations from a re-analysis of the deposited data

How the results depend on the processing

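With 4412 genes past the threshold, 1891 higher in liver, 2521 higher in kidney and 6945 inside 2-fold, the counts moved by over 1.5 times under few settings. Total counts without TMM gave 6776 (981 and 5795) and 3121 inside 2-fold. Limma on log2(TPM + 0.1) gave 6655 (959 and 5696) and 3739 inside, and on log2(TPM + 1) gave 820 in liver and 4200 in kidney. These settings put the median gene at -0.95, -0.94 and -0.72, where TMM put it at -0.0034. Which of these scales is nearer to the RNA content of the organs was not tested. A log2 threshold of 2 gave 2372 genes (968 and 1404), and no filter on low counts gave 14278 inside 2-fold out of 22652 genes tested. Without the replicate block, that is without the pairing of libraries by mouse, 4451 genes passed (1873 and 2578) and 6565 lay inside, so the pairing changed no count by over 1.5 times. The other settings, among them a q of 0.01, DESeq2 size factors, upper quartile scaling, edgeR, DESeq2, a 5 CPM filter, thinning to equal depth and leaving out 5 mice with a shallow library or 13 whose libraries stood apart, kept every count within 1.5 times. The interval uses neither q nor the fold threshold, and edgeR gives no interval, so these have no value there.

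No gene called in the main comparison was called in the opposite direction in any of the 17 alternatives. Named genes were compared in the 15 alternatives that refit the data, or in the 13 or 14 of them that tested the gene. Of the 214 named genes that were called, 190 had the same call in each of these, and of the 96 named as shared, 33 lay inside 2-fold in each, by the fold change alone for edgeR. A gene at or under 3 counts in most libraries of an organ is not resolved there. The 12296 genes under the filter gave no comparison.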

Other observations

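Hormones and receptors were split between the organs. Of 29 tested genes, 16 were higher in liver, 7 in kidney and 6 shared (median 1.19, 0.20 to 1.76 over the alternatives). Against 15.6%, 20.8% and 57.3% of all genes, the kidney count was near its share. *Hamp* had 68.2, 372 and 745 CPM in liver and 0, 0.179 and 7.48 CPM in kidney, and this iron hormone parted the organs (log2 fold change 10.52 with a standard error of 0.16, q = 2.73e-81, limma-voom). *Agt* (5.79), the precursor of angiotensin, and *Gcgr* (3.91), the glucagon receptor, were higher in liver. The axis of vitamin D and phosphate was on the kidney side, with the receptor *Vdr* (-8.39), the inactivating hydroxylase *Cyp24a1* (-8.17) and, from more than 1 transcript, the parathyroid hormone receptor *Pth1r* (-5.19). *Vdr* had 0, 0.378 and 5.20 CPM in liver and 107, 148 and 240.0 CPM in kidney. The fibroblast growth factor receptor *Fgfr4* (0.28) was shared, while its coreceptors parted, with *Klb* (6.38) in liver and *Kl* (-9.06) in kidney.

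Of 33 tested lysosomal genes, 19 were shared, 5 higher in liver and 8 in kidney (median -0.04, -1.0 to 0.01 over the alternatives), much as over all genes (57.3%, 15.6% and 20.8%). *Npc1* had 162, 317 and 534 CPM in liver and 26.4, 36 and 47.8 CPM in kidney, and this exporter of lysosomal cholesterol did not overlap between the organs, whereas the galactose hydrolase *Galc* (-3.07) was higher in kidney and the protease *Ctsd* (0.02) was shared. Of 13 tested Cyp4 hydroxylases, 7 were higher in liver and 2 in kidney (median 1.07, 0.06 to 1.71 over the alternatives), with *Cyp4f15* (6.71) and *Cyp4v3* (6.70) and *Cyp4b1* (-6.24) at the ends.

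Markers of other cells were summed over their lists, as the lowest, median and highest library. The 7 Kupffer cell markers came to 368, 730 and 2340 CPM in liver and 0.21, 1.5 and 6.7 CPM in kidney, and the 7 markers of liver sinusoidal endothelium to 323, 490 and 665 CPM in liver and 22.4, 33.6 and 92.7 CPM in kidney. The 7 renal endothelium markers summed to 229, 310 and 391 CPM in liver and 198, 259 and 341 CPM in kidney, although *Plat* (-5.57) and *Emcn* (-3.09) were higher in kidney and *Ehd3* (1.48) in liver. The 7 cholangiocyte markers, which the distal nephron also expresses, came to 2.5, 5.8 and 11.8 CPM in liver and 70.3, 93.9 and 208.8 CPM in kidney. Adipocyte markers had medians of 0.47 and 8.8 CPM (*Plin1* at 0 in every liver library), erythroid markers 5.6 and 0.93 CPM (4 of 7, all globins, at 0 in every liver library and 3 of these in every kidney library), lymphocyte markers 2.8 and 1.3 CPM, and urothelium markers 0.58 and 5.7 CPM in liver and kidney. In kidney, adrenal markers reached 28.7 CPM (*Mc2r* at 0 in every library), pancreas markers 52.2 CPM (*Try5* at 0) and muscle markers 1.2 CPM (*Tnnt3* at 0). Reads of paralogs and of genes with several transcripts may be missing, so values of 0 do not show that an RNA was absent. The low sums likewise do not measure how many such cells the pieces held. The part of these markers in the differences between the organs was not tested.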
